A study of Macaca mulatta with 38 samples.

Results

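The step from day 7 to day 8 in vitro was followed in 8 of the 38 bulk RNA-seq libraries of a time course of rhesus macaque (Macaca mulatta) fetal cortical neural stem cells. The libraries were picked by their labels, as the day 8 and the day 7 library of each of 4 culture series, and compared as 4 pairs. The choice of this step and of the gene lists below was made with earlier results of these data known. At embryonic day 42 the cortex gave the series E42 Anterior and E42 Posterior, and at embryonic day 77 the series E77 Frontal and E77 Occipital, all of WT genotype. In every series, cells were plated on PLO and fibronectin at 5% O2, fed FGF2 each day in N2 medium for 5 days, and then moved to NeuroBasal medium with B27, BDNF and NT-3 and no FGF2. Days 7 and 8 therefore both fell after FGF2 withdrawal. The labels give neither the hour of sampling nor the days on which medium was changed later. RNA came from 2 wells per condition, there was 1 library per series and day, and the days of a series belong to what the labels name as 1 culture. The p-values below thus measure the spread of the change between 4 series and not between animals.

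Cortical neural stem cells, or radial glia, divide in response to FGF2 and are held in the progenitor state by Notch signalling between neighbouring cells. After FGF2 is withdrawn they leave the cell cycle over days and give rise to neurons, and later to astrocytes and oligodendrocyte precursors. Genes of fatty acid use, sterol synthesis and amino acid uptake can respond to what the medium holds. Whether nutrient supply changed between day 7 and day 8 was not tested.

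Counted reads ranged from 24300184 to 38482028 on day 7 and from 24888008 to 27511211 on day 8, and TMM factors from 0.942 to 1.036. Levels are given as CPM, read counts scaled to a common library total after TMM, and changes as fitted log2 fold changes, day 8 minus day 7, with their standard error. The standard error was worked back from the fitted change and the statistic of its edgeR test, and is no separate measure of spread. Where 4 levels of a day are listed, they stand in the order E42 Anterior and Posterior, then E77 Frontal and Occipital. The markers of the labelled cell type were present: LHX2, a factor of cortical progenitors, stood between 63.3 and 168 CPM in the 8 libraries, the stem cell factor SOX2 between 522 and 814, and DCX, a gene of young neurons, between 1610 and 2060. Microglial markers summed to at most 0.571 CPM in any library and C1QA had no read, and the 4 blood markers HBA1, HBB, HBG2 and ALAS2 were at 0 in all 8 libraries. E42 Anterior stood apart in 6 mesenchymal markers, led by the collagen genes COL1A1, COL1A2 and COL3A1, which summed to 13800 CPM on day 7 and 19900 on day 8. In the other 3 series the same sum ran from 61.5 to 148 CPM. In bulk RNA, fewer cells of a type and less RNA per cell cannot be told apart.

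More genes were called from day 7 to day 8 than from day 6 to day 7. Of 18358 genes tested, 1252 were higher on day 8 (6.82%) and 1528 lower (8.32%) at an adjusted p under 0.05 (edgeR quasi-likelihood test with series as block, Benjamini-Hochberg adjustment). The counts of called genes in each list below are to be set beside these shares. Of the 2780 called genes, 318 changed by more than 2-fold, 168 upward and 150 downward. The direction was the same in all 4 series for 2741 of the 2780, and for 6889 of all genes tested (37.5%). The step from day 6 to day 7 called 759 of 18733 genes (4.05%), and the 3-day step from day 8 to day 11 called 1980 of 18312 (10.8%). Among the 17979 genes tested in all 3 steps the counts were 2729 for day 8 against day 7, 749 for day 7 against day 6 and 1969 for day 11 against day 8. The steps share libraries, day 7 with the step before and day 8 with the step after. A direct test of whether a gene moved differently from day 7 to 8 than from day 6 to 7, in the 12 libraries of days 6 to 8, called 461 of 19017 genes (2.42%), 172 with a more positive and 289 with a more negative second step. That test is named below as the test of the change of pace. It contains the day 8 against day 7 change itself. For genes picked by that change, passing it is therefore no independent support. Leaving out E77 Frontal lowered the count of day 8 against day 7 from 2780 to 1219, leaving out E42 Anterior lowered it to 1516 (1933 and 2754 without E77 Occipital and E42 Posterior), and the change of pace count fell to between 76 and 217 with any series left out.

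Among the 12 largest rises, SLC16A6, SLC43A2 and ARRDC3, which encode 2 transporters and a trafficking protein, were described over the whole culture. SLC16A6, which encodes a member of the monocarboxylate transporter family, stood at 1.82, 3.25, 2.59 and 4.08 CPM on day 7 and at 32.3, 31.5, 20.2 and 29.4 CPM on day 8. The groups did not overlap, and the level was about even across the 4 series on each day. It rose by 3.30 ± 0.20 on the log2 scale (adjusted p = 0.000117). SLC43A2, a transporter of large neutral amino acids, went from 38.4, 32.9, 59.3 and 61.1 to 183, 134, 231 and 223 CPM, a rise of 2.03 ± 0.07 (adjusted p = 6.24e-07). ARRDC3, an arrestin-domain protein that guides receptors from the cell surface into endosomes, went from 120, 96.6, 160 and 137 to 455, 500, 410 and 441 CPM, a rise of 1.83 ± 0.16 (adjusted p = 0.00148). All 3 genes held the new level: over days 11 to 17 in every series, and to day 20 at E77, each stayed above every level seen up to day 7, as the time courses show. From day 7 to day 8 each moved more than from day 6 to day 7 (change of pace 3.01, 2.00 and 1.5, adjusted p = 0.0201, 0.000605 and 0.0257 for SLC16A6, SLC43A2 and ARRDC3).

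**Figure D1:**
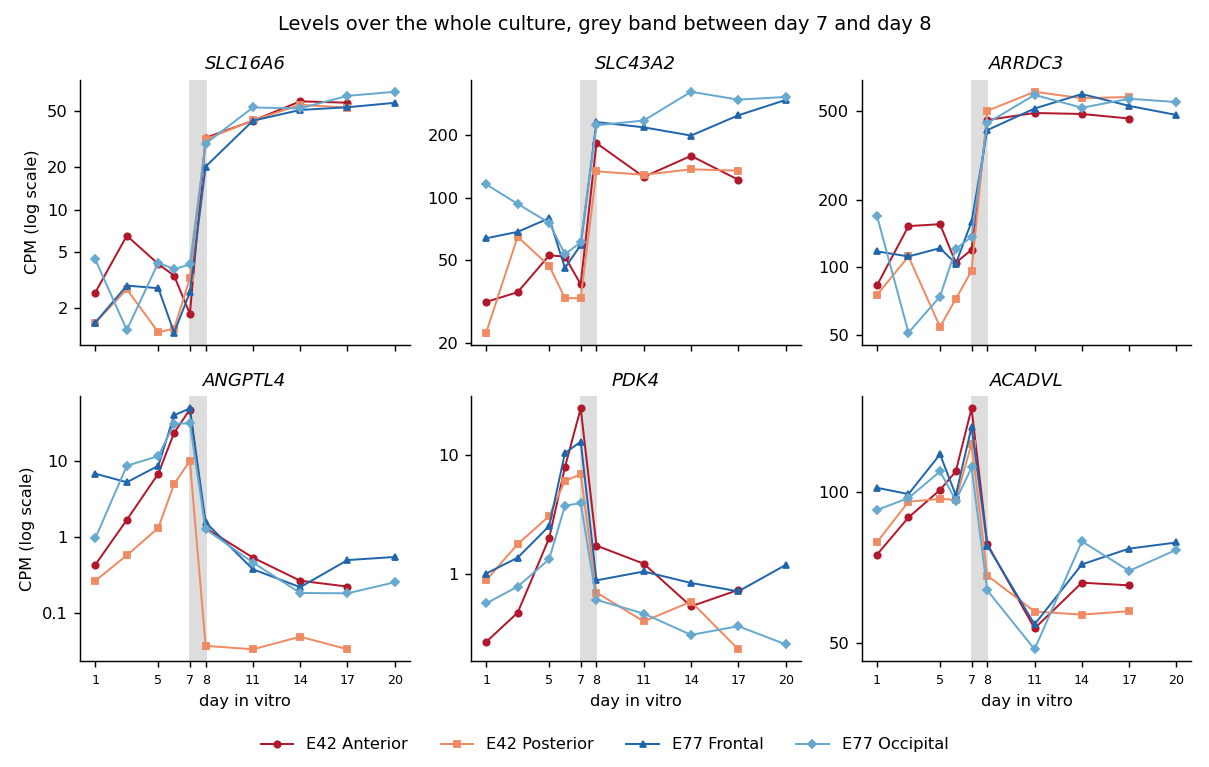
CPM on a log axis against day in vitro for 6 genes, with 1 line per culture series and 1 point per library, and a grey band from day 7 to day 8. SLC16A6, SLC43A2 and ARRDC3 step up within the band and stay up, while ANGPTL4, PDK4 and ACADVL peak on day 7 in all 4 series and drop within the band.

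The other large rises were of genes of varied function. PPP2R2C, a regulatory subunit of protein phosphatase 2A, rose from 5.68 ± 2.30 to 24.8 ± 13.9 CPM (SD, n = 4), by 2.05 ± 0.13 on the log2 scale (adjusted p = 4.71e-05). DIRAS2, a small GTPase of the Ras family, rose by 2.50 ± 0.23 (adjusted p = 0.00035), and its day 8 levels of 31, 4.66, 8.52 and 4.79 CPM overlapped the day 7 levels of 5.77, 1.28, 0.701 and 0.943. The overlap lay between series, since each series rose by at least 1.81. VGF, the precursor of secreted neuropeptides, went from 5.49, 5.71, 7.57 and 2 to 30.6, 14.7, 29.4 and 26.6 CPM (2.29 ± 0.37, adjusted p = 0.0181). HSPB8, a small heat shock protein that works in selective autophagy, went from 2.27, 0.226, 1.09 and 0.275 to 11.2, 0.8, 35.4 and 6.03 CPM (3.51 ± 0.58, adjusted p = 0.0172), and was thus highest in E77 Frontal and lowest in E42 Posterior on day 8.

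EYA2, a transcriptional cofactor, rose by 2.71 ± 0.44 (adjusted p = 0.0163), most in E42 Anterior, from 2.79 to 40.3 CPM. PDLIM3, which binds actin filaments, rose by 2.04 ± 0.43 (adjusted p = 0.0303), and by only 0.57 in E42 Posterior. TGFBI, a secreted matrix protein known as a target of TGF-beta, had a fitted rise of 3.06 ± 0.67 (adjusted p = 0.0416) that lay in a single series. It went from 7.39 to 101 CPM in E42 Anterior, the series with the mesenchymal markers, and stayed at or under 0.609 CPM in the other 3 on both days. The part of the mesenchymal cells in that rise was not tested. Leaving out a single series ended several of these calls. VGF missed the threshold without E42 Anterior or E42 Posterior (adjusted p = 0.123 and 0.0502), HSPB8 and TGFBI without E42 Posterior (0.106 and 0.148) or E77 Occipital (0.0829 and 0.0835), and EYA2 without E42 Posterior or E77 Frontal (0.159 and 0.0643). PDLIM3 missed it without E42 Anterior, E77 Frontal or E77 Occipital (0.0526, 0.0849 and 0.125), and TGFBI also under the DESeq2 Wald test (1.55, adjusted p = 0.175). The calls of VGF, HSPB8, EYA2, PDLIM3 and TGFBI were also lost when genes with low counts were kept in the fit (adjusted p = 0.0911, 0.0933, 0.0882, 0.145 and 0.16).

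**Figure D2:**
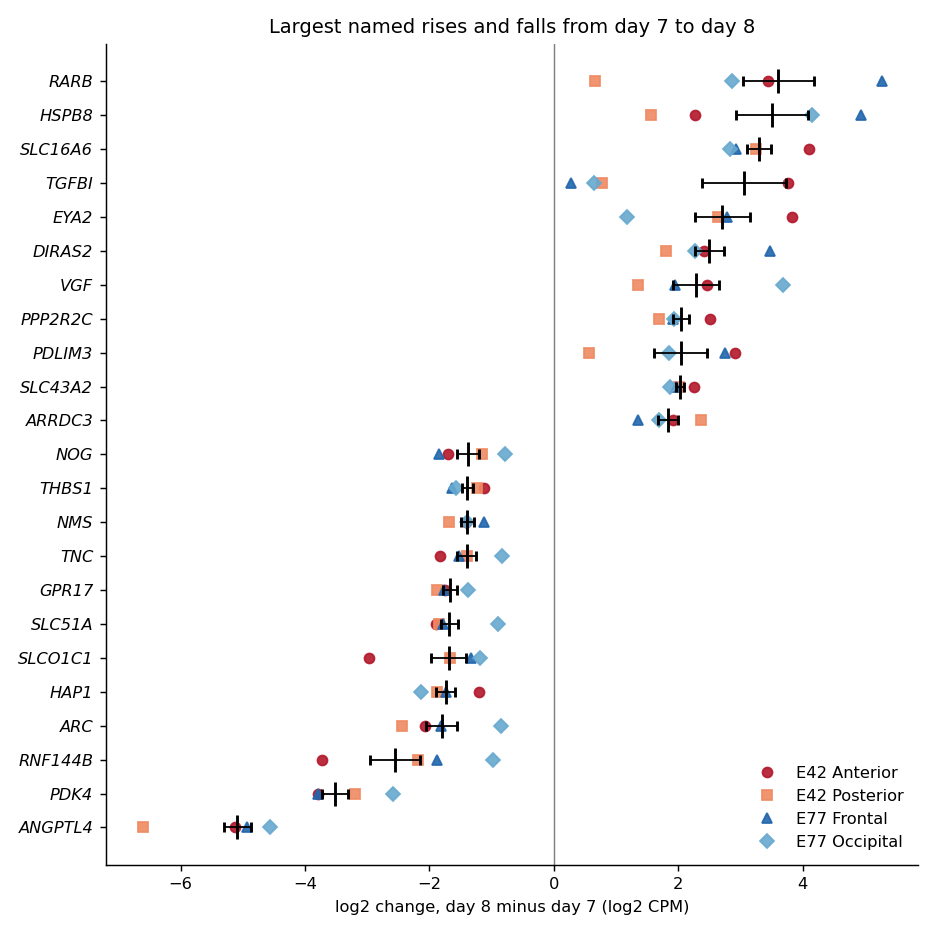
Log2 change from day 7 to day 8 of 11 of the 12 largest rises and of the 12 largest falls taken by the naming rule, with 1 coloured point per culture series and, in black, the fitted change with its standard error. ANGPTL4 and PDK4 lie furthest to the left in all 4 series, and TGFBI has 3 series between 0.28 and 0.77 with E42 Anterior at 3.76.

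The 2 deepest falls were of ANGPTL4 and PDK4, genes of lipid and fuel use. ANGPTL4, a secreted inhibitor of lipoprotein lipase and a textbook target of the PPAR nuclear receptors, stood at 48.2, 10.1, 49.9 and 31.7 CPM on day 7 and at 1.31, 0.0364, 1.56 and 1.27 on day 8. The groups were separated in every series, and the gene fell by 5.09 ± 0.22 on the log2 scale (adjusted p = 1.47e-05). PDK4, the kinase that shuts off pyruvate dehydrogenase and so spares glucose, went from 24.8, 6.87, 13 and 3.93 to 1.72, 0.691, 0.875 and 0.599 CPM and fell by 3.52 ± 0.21 (adjusted p = 1.48e-05). ANGPTL4 averaged 7.15 ± 4.37 CPM on day 5, 25.2 ± 15.1 on day 6 and 35 ± 18.5 on day 7 (SD, n = 4), and day 7 held the highest level of the whole time course in each series for ANGPTL4 and for PDK4. The change of pace was -5.70 for ANGPTL4 (adjusted p = 0.000229) and -4.08 for PDK4 (adjusted p = 0.00158).

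A list of 26 tested genes of fatty acid oxidation and PPAR targets, put together after these values were seen, held 9 that fell and 4 that rose, with a median log2 change of -0.02 against 0 over all genes tested. Beside ANGPTL4 and PDK4, the genes that fell included the carnitine palmitoyltransferase genes CPT1A and CPT1B, of the entry of long-chain fatty acids into mitochondria. CPT1A, the liver-type enzyme, fell by 1.09 ± 0.17 (adjusted p = 0.0112), from 116, 53.2, 159 and 117 to 70.9, 15.3, 78.4 and 61.6 CPM. Its muscle-type relative CPT1B fell by 1.12 ± 0.11 (adjusted p = 0.000272). ACADVL, the very long-chain acyl-CoA dehydrogenase, went from 147, 125, 135 and 112 to 78.7, 68.1, 78.2 and 63.6 CPM, with no overlap and a spread of 0.79 to 0.90 in the size of the fall between series (-0.85 ± 0.06, adjusted p = 5.39e-05). Catalase (CAT), the peroxisomal enzyme that removes hydrogen peroxide, went from 81.4, 55.5, 69.2 and 69.2 to 38.7, 31.6, 34.7 and 39.3 CPM (-0.92 ± 0.07, adjusted p = 7.39e-05). ETFDH, which passes electrons from fatty acid oxidation to ubiquinone, fell by 0.57 ± 0.09, and the carnitine carrier SLC25A20 and the thiolase ACAA2 fell by 0.40 and 0.38. UCP2, a carrier of the inner mitochondrial membrane, rose instead by 0.68 ± 0.07 (adjusted p = 0.000273), and ACADL, ACAA1 and ECI1 by 0.49, 0.35 and 0.42. HADHA, a subunit of the trifunctional protein of the later steps, had a log2 change of 0.14 (adjusted p = 0.192). The calls of SLC25A20, ACAA2, ACADL and ECI1 were lost without E77 Frontal (adjusted p = 0.116, 0.079, 0.131 and 0.0581), that of SLC25A20 also without E77 Occipital (0.0707), that of ACADL also without E42 Anterior or E42 Posterior (0.0804 and 0.056), and that of CPT1A with low counts kept (adjusted p = 0.0689).

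The other deep falls were of mixed function. RNF144B, a ubiquitin ligase, went from 44.3, 8.3, 9.57 and 0.903 to 3.26, 1.78, 2.55 and 0.423 CPM (-2.55 ± 0.40, adjusted p = 0.0112, and 0.108 without E42 Posterior). HAP1, a partner of huntingtin in vesicle transport, fell by 1.74 ± 0.15 (adjusted p = 0.000182). SLCO1C1, a carrier of thyroid hormone, fell by 1.69 ± 0.28 (adjusted p = 0.0153, and 0.151 without E42 Posterior), and SLC51A, a subunit of an organic solute and steroid transporter, by 1.68 ± 0.14 (adjusted p = 0.000477). With low counts kept, RNF144B and SLCO1C1 missed the threshold (adjusted p = 0.0709 and 0.0893). NMS, which encodes the neuropeptide neuromedin S, went from 13.6, 14.5, 44.8 and 56.9 to 5.02, 4.48, 20.4 and 21.6 CPM (-1.39 ± 0.10, adjusted p = 5.9e-05), lower on day 8 in each series although E77 levels on day 8 were above E42 levels on day 7. The matrix glycoprotein gene THBS1 fell by 1.39 ± 0.09 (adjusted p = 5.9e-05). Noggin (NOG), the secreted antagonist of BMPs, fell by 1.38 ± 0.18 (adjusted p = 0.00151).

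Transporters of monocarboxylates and amino acids were counted as families, also listed after values were seen. Of 12 tested SLC16 genes, 4 rose and 2 fell (median log2 change -0.22), beside 6.82% higher and 8.32% lower over all genes tested. Beside SLC16A6, the orphan transporter SLC16A14 went from 28.6, 24.4, 17.6 and 20.3 to 92.9, 89.2, 63.9 and 69.6 CPM (1.80 ± 0.07, adjusted p = 6.24e-07), and SLC16A9, a carnitine transporter, from 37.1, 27.5, 53.2 and 46.1 to 148, 95.9, 144 and 117 CPM (1.65 ± 0.11, adjusted p = 8.73e-05). SLC16A6, SLC16A14 and SLC16A9, which were picked by their values, also passed the test of the change of pace (adjusted p = 0.0201, 0.00186 and 0.00452). SLC16A7 and SLC16A4 were called at 0.52 and -0.70, and each call was lost without E77 Frontal (adjusted p = 0.11 and 0.126) or E77 Occipital (0.0761 and 0.0892). SLC16A7 also missed the threshold without E42 Anterior or E42 Posterior (0.196 and 0.058), and SLC16A4 without E42 Anterior (0.0648). Of 42 tested amino acid transporter genes, 11 rose and 9 fell (median log2 change -0.06), to be set beside the same shares over all genes. SLC3A2 and SLC7A5, the heavy and light chains of a carrier of large neutral amino acids, rose by 0.70 ± 0.08 (adjusted p = 0.000838) and by 0.71 ± 0.14 (adjusted p = 0.0216, with 0.0974 without E42 Posterior, 0.0755 without E77 Occipital and 0.0895 with low counts kept). The glutamine transporter SLC1A5 rose by 1.57 ± 0.26, from 23.1, 3.7, 3.08 and 2.75 to 39.1, 18.8, 8.64 and 10.2 CPM (adjusted p = 0.0106), a call lost without E77 Frontal or E77 Occipital (adjusted p = 0.0507 and 0.0685) or with low counts kept (0.0559). SLC7A3, a carrier of arginine and lysine, rose by 2.11 ± 0.31 from day 7 levels between 0.707 and 2.5 CPM (adjusted p = 0.00495). SLC38A11 fell by 1.83 ± 0.22 from day 7 levels between 0.83 and 6.48 CPM (adjusted p = 0.000838).

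Genes that answer amino acid shortage and protein stress rose in part. Of 14 tested genes of that list 7 rose and 0 fell, with a median log2 change of 0.50 against 0 over all genes tested. ASNS, asparagine synthetase, went from 22.6, 15.9, 2.73 and 1.92 to 43.7, 72.3, 8.79 and 12.9 CPM (1.80 ± 0.29, adjusted p = 0.0159). CHAC1, which degrades glutathione, rose by 1.44 ± 0.36 (adjusted p = 0.0386), PSAT1, an enzyme of serine synthesis, by 0.52 ± 0.07 (adjusted p = 0.00125), and ATF4, the transcription factor at the head of this response, by 0.33 ± 0.07 (adjusted p = 0.01). TRIB3, a pseudokinase target of ATF4, had a log2 change of 2.92 ± 0.94 that did not pass (adjusted p = 0.105, with 0.0047 without E42 Posterior and 0.0465 with all 38 libraries in the fit), with 0.0252 and 7.17 CPM on days 7 and 8 in E42 Posterior. The ASNS call was lost without E42 Posterior or E77 Frontal (adjusted p = 0.116 and 0.0528) and the CHAC1 call without E77 Frontal or E77 Occipital (adjusted p = 0.0668 and 0.146). The calls of both were also lost with low counts kept (adjusted p = 0.088 and 0.116).

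Genes of sterol synthesis were higher on day 8. Of 16 tested cholesterol synthesis genes, 10 rose and 0 fell (median log2 change 0.42). HMGCS1, the synthase that feeds the pathway, stood at 190, 204, 188 and 224 CPM on day 7 and at 278, 283, 428 and 487 CPM on day 8, with no overlap (0.83 ± 0.13, adjusted p = 0.00769). Day 7 held the lowest HMGCS1 level of the time course in each series: the mean was 878 ± 251 CPM on day 1, 561 ± 111 on day 5 and 202 ± 16.4 on day 7. The methylsterol oxidase gene MSMO1 rose by 0.92 ± 0.09 (adjusted p = 0.000526) and INSIG1, the sterol sensor that restrains the pathway, by 0.61 ± 0.13 (adjusted p = 0.0154). DHCR7, an enzyme of the last step, had changes of 1.25, 1.26 and 1.31 in E42 Anterior, E77 Frontal and E77 Occipital but -0.01 in E42 Posterior, and did not pass (adjusted p = 0.0626). It passed without E42 Posterior (1.77e-06), under the DESeq2 Wald test (0.0185), with days 6 to 8 in the fit (0.0447) and with the stricter filter (0.0473). In the step before, 0 genes of this list rose and 2 fell, and from day 8 to day 11, 2 rose and 0 fell. In the test of the change of pace, 0 genes of this list passed in either direction. The INSIG1 call was lost without E77 Frontal or E77 Occipital (adjusted p = 0.0676 and 0.0809). Of 9 fatty acid synthesis genes, ACACA, the carboxylase that makes malonyl-CoA, and the elongase ELOVL6 rose, by 0.42 ± 0.08 and 0.49 ± 0.08, and 0 fell.

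Retinoid genes were higher on day 8 in most libraries, by amounts that differed widely between series. Of 7 tested genes of the retinoid response, 3 rose and 0 fell (median log2 change 0.67). RARB, a retinoic acid receptor that is itself a known retinoic acid target, had 2.99, 0.226, 0.105 and 0 CPM on day 7 and 33.3, 0.4, 6.58 and 0.423 CPM on day 8 (3.61 ± 0.57, adjusted p = 0.0112). E42 Anterior and E77 Frontal were high on day 8, and the other 2 series stayed below 1 CPM and reached 3.97 and 4.85 CPM on day 17. DHRS3, the reductase that turns retinal back to retinol, showed the same order of series on day 8 and the reverse order on day 7. It went from 0.54, 0.931, 1.61 and 6.44 to 98.4, 1.78, 22.9 and 18.1 CPM, and did not pass (3.41 ± 1.33, adjusted p = 0.204, and 0.0348 under the DESeq2 Wald test). The receptor gene RARA rose by 0.35 ± 0.07 (adjusted p = 0.0117). CYP26A1, which breaks retinoic acid down, stayed under 1 CPM in all 8 libraries. The RARB call was lost without E42 Anterior (adjusted p = 0.0599), and the RARA call without E77 Frontal (0.069). RARB also missed the threshold with low counts kept (adjusted p = 0.0647).

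Neuronal genes went on rising. Of 13 tested pan-neuronal genes 7 rose and 0 fell (median log2 change 0.27), and from day 6 to day 7 the numbers were also 7 and 0, with a median of 0.45. NSG2, an endosomal protein of neurons, went from 62.6, 168, 13.3 and 24.2 to 135, 298, 37.7 and 52.1 CPM (1.12 ± 0.10, adjusted p = 0.000221). It had risen by 0.91 from day 6 to day 7 and rose by 1.15 from day 8 to day 11 (adjusted p = 0.0108 and 0.00823), and its change of pace did not pass (0.25, adjusted p = 0.718). The neurofilament genes NEFL and NEFM, of the axon skeleton, rose by 1.04 ± 0.19 and 0.75 ± 0.14 (adjusted p = 0.0199 and 0.016), and MYT1L, which represses non-neuronal genes, by 0.64 ± 0.14 (adjusted p = 0.0198). DCX and STMN2, microtubule proteins of migrating and growing neurons, had changes of 0.11 (adjusted p = 0.263) and 0.07 (adjusted p = 0.52). Of 15 synapse genes 4 rose and 0 fell, among them the vesicle protein gene VAMP2 by 0.56 ± 0.06, the glutamate receptor subunit GRIN2B by 1.09 ± 0.22 and CPLX2, a regulator of vesicle release, by 0.46 ± 0.07, with a list median of 0.19. GRIN2B reached 50.1 CPM in E42 Anterior and at most 0.647 in the E77 series on day 8. The calls of NEFL, NEFM and MYT1L were lost without E42 Posterior (adjusted p = 0.163, 0.136 and 0.0666), those of NEFL and MYT1L also without E77 Occipital (0.0748 and 0.0733), that of NEFL also without E42 Anterior (0.0718), those of NEFL and NEFM with low counts kept (adjusted p = 0.103 and 0.0774), and that of GRIN2B without E42 Anterior (adjusted p = 0.0686).

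Of 11 glutamatergic genes 1 rose and 1 fell, shares close to those over all genes tested, and 8 of the 11 changes were positive (median log2 change 0.26). SLC17A7, a vesicular glutamate transporter, rose by 0.92 ± 0.27 (adjusted p = 0.0471, and 0.1 without E77 Frontal), with 5.66 and 13.5 CPM on days 7 and 8 in E42 Anterior and at most 0.19 CPM in the E77 series. FEZF2, a factor of deep-layer neurons and of early progenitors, fell by 0.71 ± 0.11 (adjusted p = 0.00281), from 49.2, 69.1, 4.31 and 3.65 to 26.9, 39.3, 3.65 and 2.29 CPM. Of 12 GABAergic genes 1 rose and 3 fell, beside 6.82% higher and 8.32% lower over all genes tested. The calcium binding protein gene SCGN rose by 1.05 ± 0.15 (adjusted p = 0.00715), while DLX6 and GSX2, factors of the GABAergic lineage, fell by 0.68 ± 0.08 and 0.61 ± 0.09 (adjusted p = 0.000881 and 0.00275). GAD1, which makes GABA, fell by 0.28 ± 0.07 (adjusted p = 0.021), a call lost without E42 Anterior, E77 Frontal or E77 Occipital (adjusted p = 0.122, 0.0743 and 0.0674).

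Some progenitor genes fell. Of 12 radial glia genes 0 rose and 5 fell (median log2 change -0.20). SLC1A3, the glutamate transporter of radial glia and astrocytes, went from 2420, 2150, 1830 and 1840 to 1260, 907, 1280 and 1240 CPM, with no overlap (-0.82 ± 0.12, adjusted p = 0.00354). HES5, the Notch effector, went from 67.9, 34.7, 39.3 and 63.4 to 23.9, 20.7, 11.5 and 38.7 CPM (-1.17 ± 0.20, adjusted p = 0.0148), and PTPRZ1, a receptor phosphatase of progenitors, fell by 0.49 ± 0.06 (adjusted p = 0.00138). SOX2 had a change of -0.09 (adjusted p = 0.358). The summed level of 6 neural stem cell markers went from 4080 to 3660 CPM in E42 Anterior and from 3650 to 3150 in E42 Posterior, but from 4250 to 4450 in E77 Frontal and from 3370 to 3860 in E77 Occipital. That sum is weighted to the most abundant markers: the median over the 8 libraries was 2120 CPM for VIM and 841 for NES, against 36.7 for HES5. Among 13 Notch pathway genes, 0 rose and 5 fell, and all 13 had negative changes with a median of -0.29: the receptors NOTCH1 and NOTCH3 by 0.36 and 0.62, the ligands DLL1 and JAG1 by 0.62 and 0.65, and HES5. From day 6 to day 7, 0 genes of this list had risen and 4 had fallen. Genes of commitment to neurons also fell in part, 4 of 10 with 0 rising, among them HES6, an inhibitor of Notch effectors, by 0.61 ± 0.09. The HES5 call was lost without E42 Posterior (adjusted p = 0.0615) and with low counts kept (adjusted p = 0.0859), and that of NOTCH1 without E77 Frontal (adjusted p = 0.0507).

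Outer radial glia genes moved in opposite directions. TNC, a matrix glycoprotein of these cells, went from 1500, 651, 2130 and 951 to 419, 247, 742 and 534 CPM, a fall of 1.40 ± 0.15 (adjusted p = 0.00238), and was the most abundant of the 12 largest falls. FAM107A, which marks the same cells, rose by 1.21 ± 0.08, from 50.3, 22.3, 161 and 62.5 to 120, 44.3, 347 and 176 CPM (adjusted p = 5.71e-05). The change of pace was -1.55 for TNC (adjusted p = 0.0228) and 1.41 for FAM107A (adjusted p = 0.00214). HOPX fell by 0.43 ± 0.11 (adjusted p = 0.0348, with 0.095 without E42 Anterior and 0.118 without E77 Occipital), and missed the threshold with low counts kept (adjusted p = 0.0542). Of the 8 genes of the list, 1 rose and 2 fell, beside 6.82% higher and 8.32% lower over all genes tested.

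Cell cycle genes had mostly negative changes, few of which passed the test. Of 15 DNA replication genes 14 had negative changes, with a median of -0.15, and 2 fell and 1 rose. Over all genes tested, 8.32% fell and 6.82% rose. UHRF1, which carries DNA methylation through replication, fell by 0.46 ± 0.09 (adjusted p = 0.0128), the helicase gene MCM7 fell by 0.28 ± 0.07 (adjusted p = 0.0221), and TYMS, which makes thymidylate, rose by 0.27 ± 0.07 (adjusted p = 0.0329). Of 15 mitosis genes only TPX2, a spindle factor, passed (-0.32 ± 0.09, adjusted p = 0.0469), with 14 of 15 changes negative and a list median of -0.26. MKI67, the proliferation marker, had 459, 598, 975 and 715 CPM on day 7 and 402, 576, 594 and 564 on day 8 (-0.32 ± 0.10, adjusted p = 0.0562). It passed with low counts kept (0.0301), under the DESeq2 Wald test (0.0151), with days 6 to 8 in the fit (0.046) and without E42 Posterior (0.0162). Its E77 change, taken from a fit of all 8 libraries, also passed (0.0143). The cyclin gene CCND2 fell by 0.47 ± 0.07 (adjusted p = 0.00343), and so did the cell cycle inhibitor CDKN1C, by 0.71 ± 0.16 (adjusted p = 0.0169). Without E77 Frontal, UHRF1, MCM7, TYMS, TPX2 and CDKN1C missed the threshold (adjusted p = 0.0658, 0.118, 0.059, 0.165 and 0.0807). Without E42 Anterior, MCM7, TYMS and TPX2 did (0.103, 0.112 and 0.0977), and without E77 Occipital, TYMS and TPX2 (0.107 and 0.0897).

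Genes of the oligodendrocyte lineage were lower on day 8. Of 11 tested genes 7 fell, 0 rose and all 11 had negative changes, with a median of -0.71. GPR17, a receptor of precursors that are about to mature, went from 5.86, 4.08, 15.9 and 53.5 to 1.69, 1.06, 4.64 and 20.5 CPM, a fall of 1.67 ± 0.12 (adjusted p = 5.9e-05) and of 1.38 to 1.88 in single series. PCDH15, a protocadherin of precursors, fell by 1.06 ± 0.11 (adjusted p = 0.000478), the lineage factor OLIG1 by 0.94 ± 0.20 (adjusted p = 0.0252), PDGFRA, the receptor that keeps precursors dividing, by 0.55 ± 0.08 (adjusted p = 0.00291), and the factor SOX10 by 0.57 ± 0.13 (adjusted p = 0.0159). OLIG2 had changes of -1.53, -1.18, -0.70 and 0.05 and did not pass (adjusted p = 0.141, and 0.00638 without E77 Occipital). Its E42 change, taken from a fit of all 8 libraries, did pass (adjusted p = 0.0275). In the step before, 1 gene of the list rose and 0 fell, and from day 8 to day 11, 5 rose and 0 fell with a median of 0.87. GPR17 thereafter reached 72.2 and 220 CPM on day 17 in E77 Frontal and E77 Occipital, against 0.79 and 4.42 in E42 Anterior and E42 Posterior. Its change of pace was -1.79 (adjusted p = 0.00147). The OLIG1 call was lost without E42 Posterior or E77 Frontal (adjusted p = 0.18 and 0.0923) and with low counts kept (adjusted p = 0.122), and the SOX10 call without E42 Anterior (adjusted p = 0.0835).

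**Figure D3:**
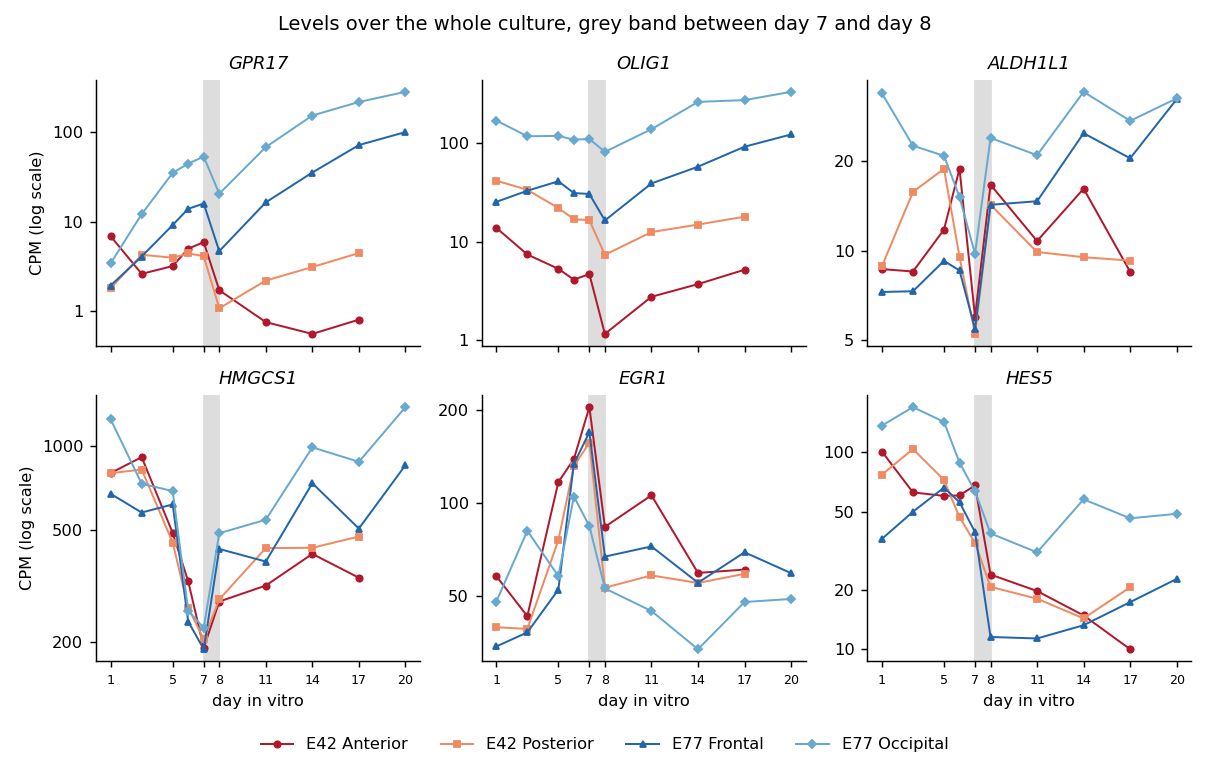
CPM on a log axis against day in vitro for 6 genes, with 1 line per culture series and 1 point per library, and a grey band from day 7 to day 8. GPR17 and OLIG1 fall within the band in all 4 series and climb again at E77. By day 17 GPR17 is also above its day 8 level in E42 Posterior, but not in E42 Anterior. The lowest OLIG1 level of the 4 series is 1.16 CPM on day 8 and 5.19 on day 17. ALDH1L1 and HMGCS1 have their lowest level on day 7. EGR1 and HES5 fall and stay under their day 7 level in each series, with HES5 back up to 57.7 CPM on day 14 in E77 Occipital, from 38.7 on day 8.

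Of 11 astrocyte genes 2 rose and 0 fell (median log2 change 0.05), beside 6.82% higher and 8.32% lower over all genes tested. ALDH1L1, a folate enzyme used as an astrocyte marker, went from 6, 5.26, 5.47 and 9.78 to 16.7, 14.3, 14.3 and 24 CPM (1.40 ± 0.10, adjusted p = 5.9e-05). It had fallen by 0.97 from day 6 to day 7 (adjusted p = 0.0173), and day 7 was its lowest day in each series. SLC1A2, the main astrocyte glutamate transporter, rose by 0.46 ± 0.10 (adjusted p = 0.0154, and 0.0713 without E77 Occipital). The water channel gene AQP4 had a change of -0.41 that did not pass (adjusted p = 0.234).

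Immediate early genes, which respond within minutes to growth factors and activity, were lower on day 8. Of 14 tested genes 7 fell and 0 rose, with a median of -0.81. EGR1, a zinc finger factor, went from 205, 157, 170 and 84.2 to 83.7, 53.1, 67 and 52.8 CPM, with no overlap (-1.22 ± 0.13, adjusted p = 0.00219). ARC, a synaptic gene induced by activity, went from 48, 31.2, 33 and 18.6 to 11.4, 5.71, 9.36 and 10.3 CPM (-1.80 ± 0.25, adjusted p = 0.00929), with low counts kept 0.0647. FOSL1 fell by 1.59 ± 0.23 (adjusted p = 0.00219), EGR3 by 1.62 ± 0.39 (adjusted p = 0.0382), FOSB by 1.32 ± 0.26 and NR4A1 by 0.82 ± 0.10. The first 3 of these were low: means on days 7 and 8 were 2.23 and 0.783 CPM for FOSL1, 6.98 and 2.02 for EGR3, and 1.91 and 0.781 for FOSB. FOS itself had changes of -1.13, -1.47, -0.52 and -0.04 and did not pass (adjusted p = 0.0602). It passed without E77 Occipital (0.0146), under the DESeq2 Wald test (0.00199) and with days 6 to 8 in the fit (0.0327). Its E42 change, taken from a fit of all 8 libraries, also passed (0.00132). E77 Occipital moved least in EGR1, ARC, EGR2, EGR3 and FOS, with changes of -0.67, -0.85, -0.02, -0.04 and -0.04. The EGR2 and EGR3 calls were lost without E42 Anterior (adjusted p = 0.0601 and 0.0509), E42 Posterior (0.0558 and 0.21) or E77 Frontal (0.0988 and 0.131), and that of EGR3 with low counts kept (0.143).

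FGF and ERK feedback genes, the negative regulators and ETS factors switched on by FGF signalling, were divided: of 13 tested, 3 rose and 4 fell (median log2 change 0.03). The phosphatase gene DUSP4 went from 211, 198, 51 and 13.1 to 402, 380, 75.9 and 34.1 CPM (0.94 ± 0.11, adjusted p = 0.00142), and SPRY4, an inhibitor of receptor tyrosine kinase signalling, rose by 0.62 ± 0.09 (adjusted p = 0.00297). The ETS factors ETV4 and ETV5 fell by 0.90 ± 0.17 and 0.67 ± 0.10 (adjusted p = 0.0122 and 0.0034). The neurotrophin receptor genes NTRK2 and NTRK3, whose ligands BDNF and NT-3 were in the medium, fell by 0.29 ± 0.06 and 0.36 ± 0.08 (adjusted p = 0.0131 and 0.0118). VGF was the only riser of the 7 tested neurotrophin genes, and 4 fell. The ETV4 and NTRK2 calls were lost without E77 Frontal (adjusted p = 0.0603 and 0.079).

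**Figure D4:**
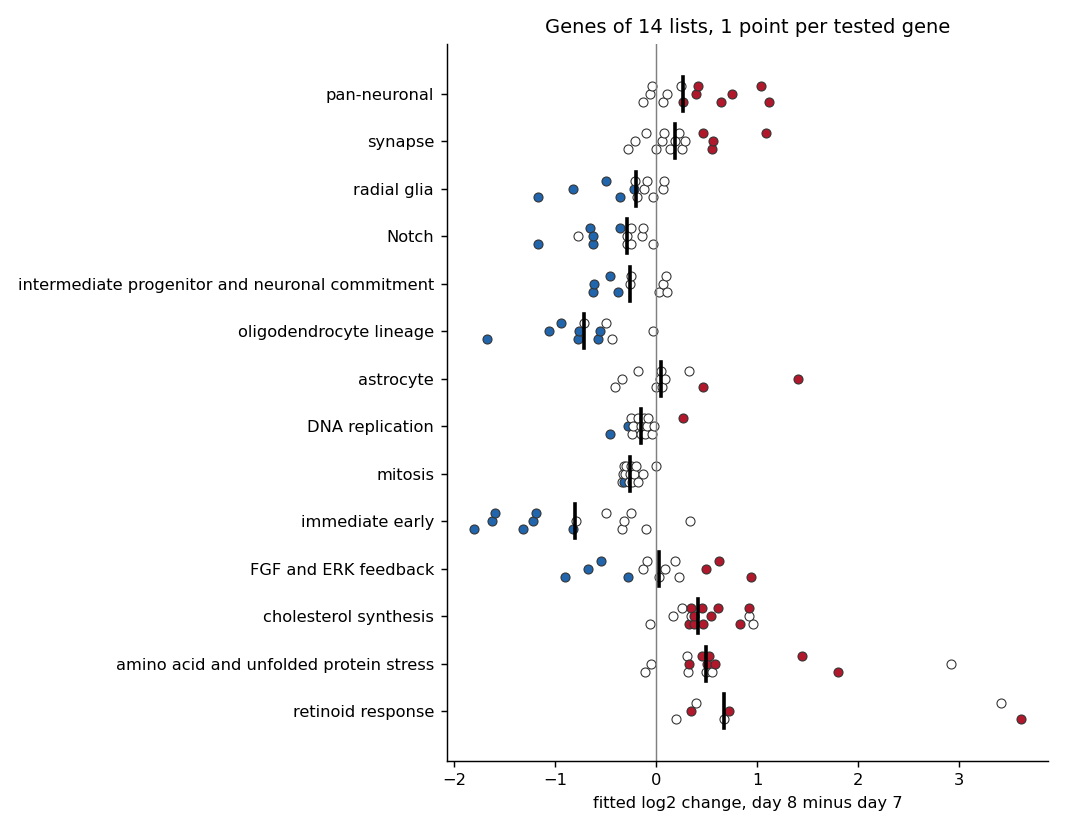
Fitted log2 change from day 7 to day 8 of every tested gene of 14 gene lists, 1 point per gene, filled red (higher) or blue (lower) where the adjusted p was under 0.05 and open where it was not, with the list median as a black bar. The immediate early and oligodendrocyte lineage lists have the lowest medians, -0.81 and -0.71, and the retinoid list the highest, 0.67.

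Among the TGF-beta and YAP targets 1 of 8 rose (TGFBI) and 3 fell, with a median of -0.30. Fibronectin (FN1), at 4030 CPM on day 7 and 3310 on day 8 in E42 Anterior and at 186 CPM or less elsewhere, fell by 0.69 ± 0.13 (adjusted p = 0.0122, and 0.074 without E77 Occipital) and was the only gene called of 13 extracellular matrix genes. FOXC1, a factor of meningeal and perivascular mesenchyme, rose by 0.86 ± 0.17 (adjusted p = 0.0102), from 84.8 to 163 CPM in E42 Anterior, with at most 0.509 CPM in the other series, and the call was lost without E42 Anterior (adjusted p = 0.614) and under the DESeq2 Wald test (0.332). Of 8 pericyte and fibroblast genes 1 rose and 1 fell, and of 6 endothelial genes 0 rose and 3 fell, with KDR, a VEGF receptor gene, between 3.26 and 11.7 CPM on day 7 (-1.36 ± 0.33, adjusted p = 0.0351). The KDR call was lost without E42 Posterior, E77 Frontal or E77 Occipital (adjusted p = 0.186, 0.107 and 0.149) and with low counts kept (0.103).

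The remaining lists are given by their counts, beside the 6.82% higher and 8.32% lower over all genes tested. Of 15 ribosomal protein genes 4 rose and 0 fell (median log2 change 0.17), all 15 changes were positive, and RPL10A rose by 0.26 ± 0.06 (adjusted p = 0.0163, with 0.0636 without E42 Anterior and 0.054 without E77 Occipital), in a family whose processed copies can share reads. Of 9 heat shock genes 3 rose, the constitutive chaperone gene HSPA8 by 0.37 ± 0.08 (adjusted p = 0.0152, and 0.0638 without E77 Frontal), and 0 fell. Of 10 NRF2 targets 2 rose, among them thioredoxin (TXN) by 0.63 ± 0.07 (adjusted p = 0.000659), and 0 fell. The numbers higher and lower on day 8 were 1 and 0 of 15 for glycolysis and hypoxia, 2 and 1 of 14 for the respiratory chain, 1 and 0 of 12 for p53 targets, 2 and 2 of 10 for the glucocorticoid response, 0 and 1 of 9 for WNT targets, 1 and 2 of 11 for BMP targets, 0 and 3 of 10 for cell cycle exit, 0 and 2 of 10 for the interferon response, 4 and 0 of 16 for axon guidance, and 1 and 0 of 7 for choroid plexus and cortical hem, with list medians between -0.34 and 0.14. Of the microglial list only CD68 could be tested and did not pass, and of the red blood cell list 0 genes could be tested. Outside the lists, and picked after its values were seen, SLC30A2, a zinc exporter, had 1, 1, 0 and 1 counts on day 7 and 57, 36, 37 and 26 counts on day 8.

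The step was compared between the 2 ages, with 2 series each. A test of the difference between the 2 E77 and the 2 E42 pairs called 3 of 18358 genes (0.0163%), with 1507 at an unadjusted p under 0.05. RYR2, the calcium release channel of the endoplasmic reticulum, went in opposite directions: from 2.82 and 2.01 to 7.24 and 4.95 CPM in E42 Anterior and E42 Posterior, and from 21.9 and 12.2 to 5.21 and 2.04 CPM in E77 Frontal and E77 Occipital. The fitted change was 1.33 at E42 and -2.29 at E77 (E77 minus E42 -3.62 ± 0.28, adjusted p = 0.00163). L1CAM, an adhesion molecule of growing axons, rose from 44.7 and 46.1 to 72.7 and 74.8 CPM at E42 and from 12.2 and 7.7 to 52.8 and 30.6 CPM at E77 (difference 1.36 ± 0.13, adjusted p = 0.00659). The calcium binding protein gene CALB2, a marker of interneurons, went from 331 and 101 to 413 and 112 CPM at E42 and from 35.9 and 13.8 to 98.7 and 46.3 CPM at E77 (difference 1.35 ± 0.14, adjusted p = 0.00659). In L1CAM and CALB2 the E77 series started lower and came closer to the E42 levels. Age cannot be told apart from fetus, dissection or culture run. Without E77 Frontal or E77 Occipital no gene was called (0 by edgeR, 1488 and 918 at an unadjusted p under 0.05), and without E42 Anterior or E42 Posterior 82 and 83 genes were. Each of these fits leaves 1 age with a single pair, whose change is assumed to vary like the pairs of the other age. Without E77 Frontal the differences of RYR2, L1CAM and CALB2 were -3.90, 1.29 and 1.51 (adjusted p = 0.136, 0.273 and 0.139), and without E77 Occipital -3.40, 1.42 and 1.22 (adjusted p = 0.268, 0.3 and 0.447).

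**Figure D5:**
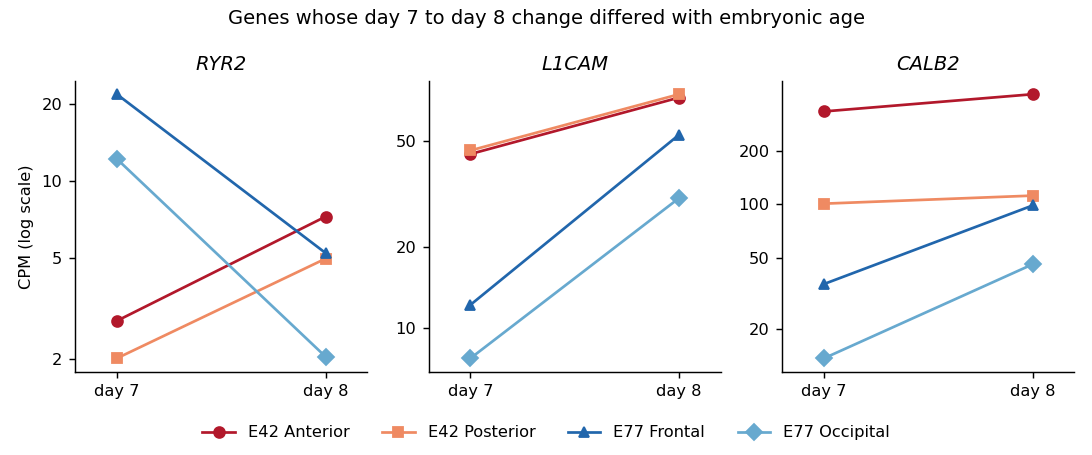
CPM on a log axis on day 7 and day 8 for RYR2, L1CAM and CALB2, with 1 line per culture series joining its 2 libraries. The E42 and E77 lines of RYR2 cross, and the E77 lines of L1CAM and CALB2 are steeper than the E42 lines.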

How the data were processed

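Total RNA was made into poly(A)-selected, strand-specific libraries, per the labels' protocols. For 34619 genes, the authors deposited raw read counts in 1 file and RPKM in another. STAR and featureCounts are named in the submitters' processing notes, with no versions. Build and annotation are not given in the sources used here; of the gene names, 15986 are provisional LOC names. In 13494 genes the deposited RPKM tracked the counts by a fixed factor per gene once divided by library total (coefficient of variation at most 4.1e-05), and it served as an alternative.

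Counts of the 8 libraries were tested with edgeR 4.0.16 in R 4.3.3: filterByExpr, TMM, robust quasi-likelihood fit of day with culture series as block (3 residual degrees of freedom), Benjamini-Hochberg adjustment over 18358 genes, threshold 0.05. The pairing comes from the titles, which name 1 series on successive days. Deviations from the day mean correlated between the 2 libraries of a series at 0.88, 0.81, 0.82 and 0.8. The per-series changes are differences of log2 CPM (prior count 2), and correlated between series at 0.32 to 0.47. No 2 of the 28 library pairs differed by less than 30.3 times counting noise, so none was a repeat. The fit of day 8 against day 7 was tested on simulated counts.

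The comparison and the 38 gene lists were chosen with earlier results of these data known, and 3 more lists after values were seen. Named genes are the 12 largest rises and 12 largest falls among passing genes with a symbol, a mean of at least 10 CPM on the higher day and 1 direction in 4 series, up to 3 passing genes per list (or, with under 2 passing, up to 2 by level), and the genes of the age difference; some are not reported here. Others named, chiefly of fatty acid oxidation, transport, retinoid, Notch and immediate early genes, were chosen after their values were seen. Listed genes not found by symbol were TUBB3, AMOTL2, CYP51A1, HSPA1B, CYP26B1, RPS6, UQCRB, COX7A2, HBA2, HBG1 and PLIN2.

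Alternatives were DESeq2 1.42.0 (size factors, and the Wald test), no filter, a stricter filter (CPM of 1 in 4 libraries), no replicate block, days 6 to 8 or all 38 libraries in the fit, each series left out, the change of each age, and limma 3.58.1 on log2 RPKM with a pseudocount of 1 or of 0.1, over genes at RPKM 1 or more in 4 libraries. The change of each age came from the 8-library fit of the age difference, so filter, scaling and error were shared by both ages. Leaving out each series from the age difference and the change of pace was added after the data were seen.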

Additional observations from a re-analysis of the deposited data

Results flagged for a closer look

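In 7 of the 137 genes examined, 1 of the 4 series lay far from the other 3 in its log2 change from day 7 to day 8. Chance alone sets about 1 in 20 groups of 4 apart in this way, a share close to 7 in 137. The 7 genes are listed without a claim that they exceed that share. E42 Anterior changed by 3.76 in TGFBI, where the other series changed by 0.28 to 0.77. It changed by 1 in SLC16A7, against 0.34 to 0.38, and by -1.22 in AQP4, against -0.23 to -0.12. E42 Posterior changed by -0.01 in DHCR7, against 1.25 to 1.31. E77 Occipital changed by -0.90 in SLC51A, against -1.89 to -1.78, by -0.16 in NOTCH1, against -0.45 to -0.41, and by -0.02 in NQO1, a quinone reductase of the NRF2 response, against 0.65 to 0.77.

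The change differed with age by a test of the difference itself in RYR2 (E77 minus E42 -3.62 on the log2 scale), L1CAM (1.36) and CALB2 (1.35), given above with their levels.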

How the results depend on the processing

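The count of genes called for day 8 against day 7 stayed within 1.5 times 2780 with DESeq2 size factors, no low-count filter, a stricter filter, the DESeq2 Wald test and days 6 to 8 in the fit. With no replicate block, which leaves the differences between series in the error, it was 15 (15 higher and 0 lower by edgeR, 1426 at an unadjusted p under 0.05). It was 800 (407 and 393) with all 38 libraries in the fit, 1625 (812 and 813) with limma on log2(RPKM + 1) and 1554 (785 and 769) on log2(RPKM + 0.1). Within the 8-library fit of the age difference it was 1319 (514 and 805) for the E42 change and 1346 (693 and 653) for the E77 change. Leaving out each series in turn gave 1219 to 2754 genes, 544 to 1267 higher and 675 to 1487 lower. Of 122 named genes that passed, between 105 (both limma fits) and 122 could be fitted in each setting, and 0 of those changed direction; 51 still passed with all 38 libraries and 4 without the block. RYR2, which did not pass over the 4 series (-0.54, and -1.22 without E42 Anterior), turned to 0.13 without E77 Frontal and 0.14 without E77 Occipital. Its E42 change in the 8-library fit was 1.33. Day 7 against day 6 gave 1182 genes with no filter, 0 with no replicate block (332 at an unadjusted p under 0.05) and 233 to 1120 without 1 series. Day 11 against day 8 gave 0 with no replicate block (916 at an unadjusted p under 0.05) and 643 to 1426 without 1 series. The age difference gave 112 genes with no filter, 7 with days 6 to 8 in the fit and 0 to 83 without 1 series, and the change of pace 76 to 217 without 1 series. Why the counts moved was not tested.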
